A study of Arabidopsis thaliana with 19 samples.

Results

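Cells sorted with the AtHB8 and S17 reporters, labelled xylem and phloem, were compared with cells sorted with 5 reporters of other tissues in the shoot apex of Arabidopsis thaliana. The vascular set was chosen by array title: 3 AtHB8 arrays and 3 S17 arrays, 6 of the 19 arrays in the series. The other 13 arrays were AtML1 (2 arrays, labelled epidermal), HMG (3, epidermal), HDG4 (3, subepidermal), KAN1 (3, organ circumference) and LAS (2, adaxial). The AtHB8 label also carries the word stem. All 7 populations came from ap1-1;cal1-1 plants grown for 28 days, so all of them carry both mutations. Tissue was protoplasted and fluorescent cells were sorted. RNA was amplified in 2 rounds before it was hybridised to Affymetrix ATH1 arrays, where a set of short probes stands for a transcript. The comparison holds no unsorted or wild-type sample. Each population is defined by a promoter reporter, and the sources used here do not say whether arrays of the same reporter came from separate plants. The p-values therefore measure the spread between these arrays, which may be technical. The fit gives each reporter its own mean. Its p-values and standard errors thus leave out the spread between reporters within the vascular set and within the others.

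Vascular tissue arises from procambium, files of dividing cells that give xylem on one side and phloem on the other. Class III HD-ZIP and DOF transcription factors, auxin, and a peptide signal read by the receptor kinase PXY are known to pattern these files. Xylem conducts water and builds lignified walls before its vessels die, while phloem moves sugars, amino acids and defence compounds.

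Every level below is a MAS5 signal, a linear brightness scaled by the authors to the same trimmed mean on each array. Every difference is in log2(signal + 1): the mean of AtHB8 and S17 minus the mean of the 5 other reporters, each reporter weighing the same, with ± its standard error. The calling rule was a limma adjusted p below 0.05 together with a change of 2-fold or more. A gene was called shared where AtHB8 and S17 each passed that rule against each of the 5 others, in all 10 pairs. Where all arrays of the dimmer side carried the authors' absent call, the fold is a bound, written as at least N-fold. The adjusted p beside a bound comes from the limma fit to the signals themselves, absent ones included, and does not test the bound. Where a reporter of the brighter side was also absent on all its arrays, its own signal entered, and the bound is not strict. At 54 of the 150 named genes that were called, some but not all reporters of the dimmer side were absent on all their arrays, and the fitted difference then rests in part on signals not above background. In sorted pools, more cells of a type and more RNA per cell cannot be told apart.

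The gene of each vascular reporter was brightest in the cells of that reporter. ATHB8 (AT4G32880), an HD-ZIP transcription factor of procambium, had signals of 9063, 10470 and 8374 in AtHB8 cells and 2017, 1527 and 1600 in S17 cells, against 2.84 to 85.3 with a median of 6.71 over the 13 other arrays. It was called absent on all 13 and was at least 127-fold higher in vascular cells (adjusted p = 3.55e-11). AtHB8 cells exceeded S17 cells by 2.44 ± 0.61 (adjusted p = 0.0131). BZIP6 (AT2G22850), known from background rather than from the labels as the gene of the S17 reporter, had 165, 112 and 107 in AtHB8 cells and 289, 379 and 286 in S17 cells, against 24.01 to 93.7 in the others. For neither gene did the vascular arrays overlap the others, though for BZIP6 the lowest AtHB8 array, at 107, lay close to 93.7.

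Marker genes of 7 cell types were summed on each array. The 3 procambium markers with a probe set reached 17454 to 20958 in AtHB8 arrays and 3639 to 4502 in S17 arrays, against 19 to 339 in the other 13. Xylem markers summed to 3109 to 4364 in AtHB8 and 723 to 1084 in S17 arrays, against 82 to 254; XCP1 and CESA8 were called absent on all S17 arrays. Phloem markers were brightest in S17, at 11688 to 13813. They reached 4138 to 6048 in AtHB8, where APL and SEOR1 were called absent and BAM3 was bright.

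The other reporters were not free of phloem markers, which summed to 1558 to 3076 in HDG4 and 580 to 1167 in KAN1 arrays, against 51 to 137 in AtML1, HMG and LAS. Epidermal markers were low in vascular cells, at 893 to 1016 in AtHB8 and 770 to 1870 in S17, against 3266 to 4129 in HDG4 and 25152 to 72333 in the remaining reporters. Mesophyll markers summed to 5880 to 6155 in AtHB8 and 8384 to 11067 in S17, against 8557 to 10523 in KAN1 and 1512 to 4364 in the other 4 reporters. Meristem and boundary markers summed to 2932 to 3377 in AtHB8 and 3617 to 5054 in S17, against 1620 to 11629 in the others. Of these 6 markers AtHB8 lacked 4 and S17 lacked 5 by the absent call. STM made up nearly all of the vascular sums, at a mean of 2999 in AtHB8 and 4392 in S17, and was not called (0.044). Stomatal markers summed to 98 to 258 in vascular arrays and 126 to 379 in the others. The part that cells of another type play in the results was not tested.

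**Figure D1:**
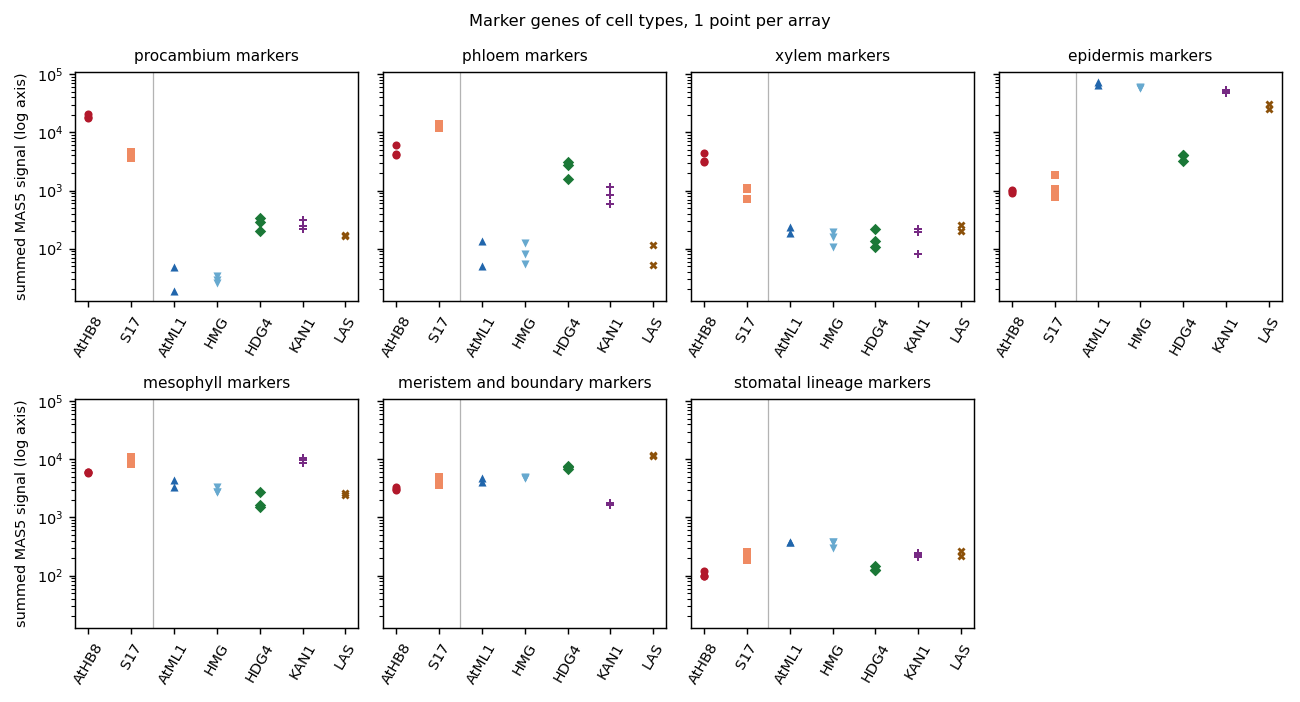
Summed MAS5 signal of each marker list (log axis), 1 point per array, with the AtHB8 and S17 reporters left of the 5 others. Procambium and xylem markers are brightest in AtHB8, phloem markers in S17, and epidermal markers are dimmest in AtHB8 and S17.

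The 3′ to 5′ signal ratio of the ubiquitin control transcript, a sign of how complete the RNA was, averaged 2.05 ± 0.343 (SD, n = 6) in vascular arrays and 3.40 ± 0.696 (n = 13) in the others (two-sided exact permutation test, p = 0.000590, adjusted p = 0.00177 over 3 transcripts). The actin ratio averaged 11.4 in vascular arrays and 10.5 in the others (exact p = 0.677). The GAPDH ratio averaged 2.05 in vascular arrays and 2.27 in the others (exact p = 0.245). These tests permuted single arrays as independent units, although arrays of one reporter belong together. Their p-values therefore do not measure the spread between reporters, and a permutation of whole reporters was not run. By reporter, the mean ubiquitin ratio was 2.03 in AtHB8 and 2.07 in S17. It was 2.75 in KAN1, 3.03 in HDG4, 3.39 in HMG, 4.02 in LAS and 4.29 in AtML1. Whether the ubiquitin difference plays a part in any gene's result was not tested.

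Of 15149 probe sets tested, 2356 were higher in the vascular reporters (15.6%) and 1995 were lower (13.2%), 28.7% in all. Against the same 13 arrays, AtHB8 alone was higher at 2252 (14.9%) and lower at 1911 (12.6%), 27.5% in all. S17 alone was higher at 2419 (16%) and lower at 2275 (15%), 31% in all. Of those higher by the vascular mean, 1706 were called in both reporters (11.3% of all tested), 251 in AtHB8 only, 392 in S17 only and 7 in neither. Of those lower, 1384 were called in both (9.14%). A call by the mean can thus rest on 1 reporter.

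In all 10 pairs, 777 probe sets were higher (5.13%) and 418 were lower (2.76%), 7.89% in all. The smallest of the 10 differences had a median of 2.095 among the shared higher and -1.447 among the shared lower. Vascular and other arrays did not overlap at 771 of the shared higher and 398 of the shared lower probe sets. The shared rule selects on these same arrays, so this follows largely from the selection and is no separate support. Of all tested, 10.2% lay wholly above and 10.2% wholly below. Within the shared higher set, AtHB8 was called above S17 at 53, S17 above AtHB8 at 77, and 647 were not called between them, where 8.56% of all tested were (4.2% higher and 4.36% lower in AtHB8). Missing that threshold does not show that the reporters had the same level.

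KAN1 was the reporter that most often kept a probe set out of the shared higher set. Both vascular reporters exceeded AtML1, HMG, HDG4 and LAS, but did not both pass against KAN1, at 250 probe sets. The same count was 56 with AtML1 as the exception, 36 with HMG, 53 with HDG4 and 32 with LAS. For lower probe sets it was 161 with KAN1 and 123 with HDG4.

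The 12 widest shared gains were ranked by the smallest of the 10 differences. ATSBT5.2 (AT1G20160), a subtilisin-like protease, had signals of 1861, 3032 and 1810 in AtHB8 cells and 2619, 3155 and 3416 in S17 cells, against 2.14 to 74.5 with a median of 12.1 in the others, at least 88.6-fold higher (adjusted p = 6.72e-09). TGA7 (AT1G77920), a bZIP transcription factor, had 708, 1003 and 674 in AtHB8 cells and 1790, 1691 and 2023 in S17 cells, against 2.14 to 30.2, at least 43.8-fold higher (adjusted p = 2.51e-09). HAI2 (AT1G07430), a protein phosphatase of the abscisic acid response, had 2393, 2756 and 2227 in AtHB8 cells and 2950, 3718 and 2505 in S17 cells, against 12.4 to 129, a 46.6-fold difference (5.54 ± 0.32, adjusted p = 8.08e-10). For these 3 genes every vascular array lay above every other array, which their ranking on the same arrays favours.

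SHR (AT4G37650), a mobile GRAS transcription factor made in root vascular tissue, stood close together in the vascular pair, at 2616, 2672 and 2397 in AtHB8 cells and 2405, 2616 and 2210 in S17 cells. The other 13 arrays ran from 7.03 to 144 with a median of 58.6 (6.18 ± 0.42, adjusted p = 6.34e-09). JR1 (AT3G16470) and JRG21 (AT3G55970) are both known to respond to jasmonate. JR1 had 6101 to 11050 in vascular arrays, against 11.8 to 452 in the others (6.76 ± 0.42, adjusted p = 2.23e-09). JRG21 had 852 to 2460, against 2.23 to 59.0, at least 49.2-fold higher (adjusted p = 1.01e-08). The others among the 12 were the MYB factor gene MYB43 (at least 25.1-fold), the kinase gene MAPKKK15 (at least 8.09-fold), the transporter gene UMAMIT28 (at least 55.9-fold), ATHB8, and the lignin genes 4CL1 and CAD5. UMAMIT28 was uneven within the pair, with 437, 572 and 638 in AtHB8 cells and 7494, 4335 and 4969 in S17 cells.

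The 12 widest shared losses were ranked in the same way. ERL2 (AT5G07180), a receptor kinase of the ERECTA family, had 111, 112 and 104 in AtHB8 cells and 93.9, 82.6 and 118 in S17 cells, against 2479 to 4600 with a median of 3491 in the others. It was called absent on all 6 vascular arrays, and the others were at least 32.9-fold higher (adjusted p = 1.59e-13). Its relative ERL1 (AT5G62230) was shared and lower too, with 92.7 to 188 in vascular arrays and 1546 to 3183 in the others (-4.12 ± 0.14, adjusted p = 2.26e-12). The family's namesake ER (AT2G26330) stayed bright, at 4333 to 6815 in vascular arrays against 7629 to 13490 in the others, and missed the fold minimum (-0.88 ± 0.09, adjusted p = 4.72e-07).

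TT4 (AT5G13930), chalcone synthase, FLS1 (AT5G08640), flavonol synthase, and MYB12 (AT2G47460), an activator of flavonol genes, were all shared and lower. TT4 had 285, 124 and 21.7 in AtHB8 cells and 172, 189 and 49.6 in S17 cells, against 1838 to 15210 in the others (-5.88 ± 0.45, adjusted p = 1.87e-08). FLS1 differed by -6.21 ± 0.41 (adjusted p = 4.18e-09) and MYB12 by -4.11 ± 0.21 (adjusted p = 2.35e-10). The auxin-synthesis gene YUC4 (AT5G11320) had 4.46 to 45.9 in vascular arrays, against 297 to 992 (-5.12 ± 0.40, adjusted p = 2.58e-08). The remaining 7 of the 12 were called absent on all 6 vascular arrays: the peptide gene CLE17 (at least 37.6-fold higher in the others), the RNA-binding protein gene TEL2 (32.5), the HD-ZIP gene ANL2 (30.8), the amino acid transporter gene LHT1 (23.2), the cutin acyltransferase gene GPAT4 (18.7), the bHLH gene NAI1 (15.7) and the nuclease gene ENDO3 (12.4).

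**Figure D2:**
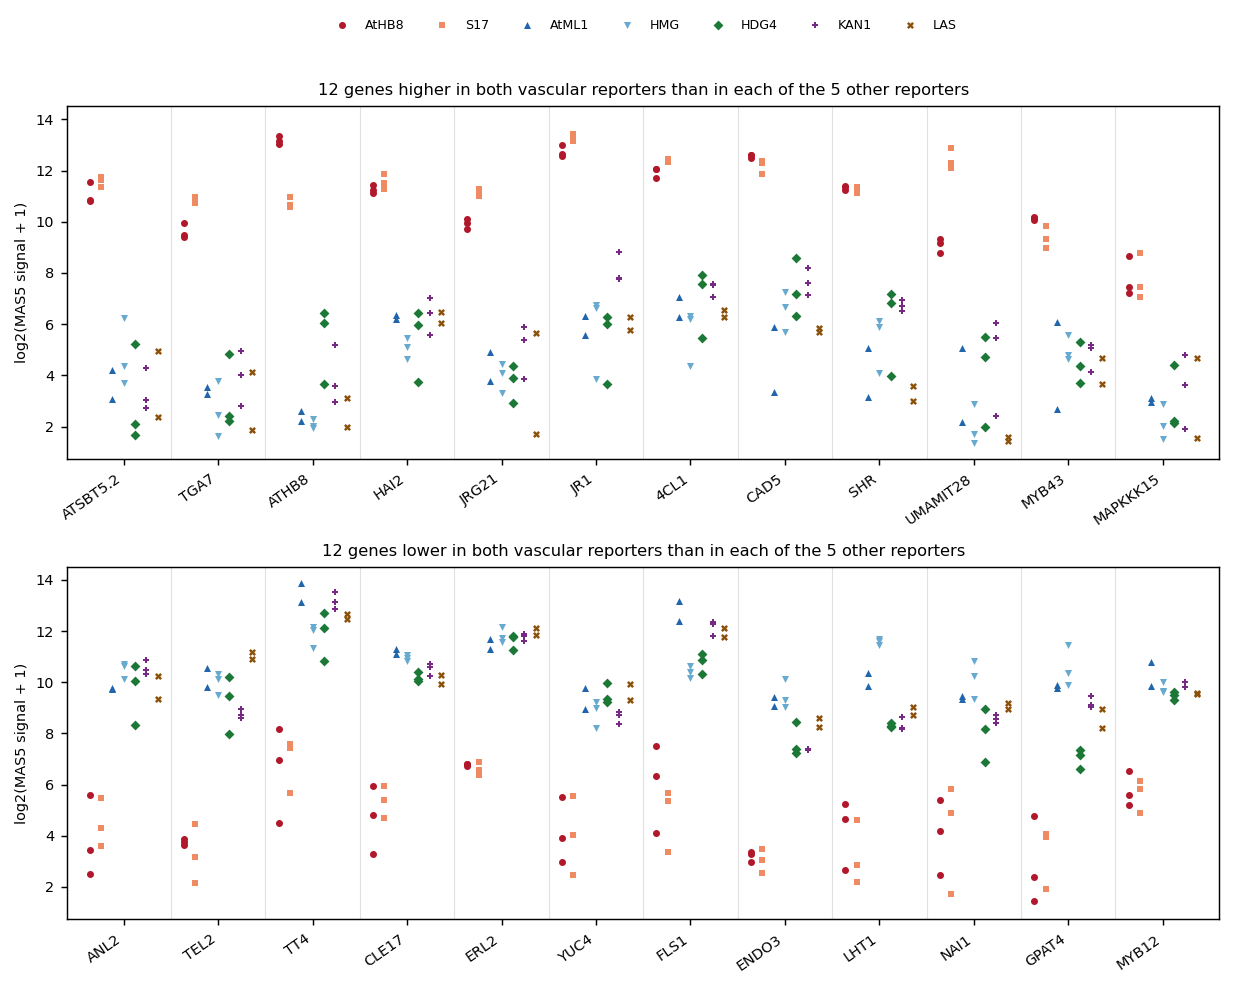
log2(MAS5 signal + 1) on every array for the 12 genes higher and the 12 lower with the widest smallest difference over the 10 pairs, AtHB8 and S17 drawn left of the 5 others for each gene. No vascular array overlaps the other arrays for these 24 genes, which were selected and ranked on the same arrays.

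Of 23 tested procambium and cambium genes, 12 were higher and 3 lower by the vascular mean, and 6 were shared higher (ATHB8, PXY, RUL1, VH1, TMO5, T5L1). Over all tested, 15.6% were higher, 13.2% lower, 5.13% shared higher and 2.76% shared lower. These shares stand beside the counts of every list below. The share of lower members here was near that of all tested. PXY (AT5G61480), the receptor kinase for CLE41 and CLE44 peptides, had 6308, 6865 and 5685 in AtHB8 cells and 2116, 1779 and 1710 in S17 cells, against 7.99 to 154 in the others (6.10 ± 0.25, adjusted p = 2.79e-11). AtHB8 exceeded S17 by 1.75 ± 0.42 (adjusted p = 0.0104). VH1, a receptor kinase related to the brassinosteroid receptor, and the bHLH genes TMO5 and T5L1, known from early vascular divisions, were also brighter in AtHB8 than in S17. TMO5 had 2955 to 3623 in AtHB8 cells and 329 to 439 in S17 cells, against 4.38 to 144 (4.86 ± 0.14, adjusted p = 9.34e-13). RUL1, a receptor kinase of cambium, was brighter in S17, with 928 to 1346 in AtHB8 cells and 5648 to 7603 in S17 cells, against 2.63 to 153 (6.92 ± 0.21, adjusted p = 1.54e-12).

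The gene for PXY's ligand CLE41 (AT3G24770) was bright in S17, with 22.4, 34.97 and 32.7 in AtHB8 cells and 996, 746 and 929 in S17 cells, against 14.4 to 169 in the others. Its call by the mean (1.70 ± 0.29, adjusted p = 8.91e-05) rested on S17, since AtHB8 was called absent on all its arrays and was not called alone (adjusted p = 0.108). The other higher members were SMXL5 (4.09), LOG3 (at least 8.09-fold, though absent on all S17 arrays), CVP2 (2.05), BRL1 (1.15) and LBD4 (1.11). LBD4, a LOB-domain factor gene, was carried by AtHB8, at 1368 to 2032, while S17 had 239 to 473 and the others 210 to 585. AHP6, a pseudo-phosphotransfer protein that inhibits cytokinin signalling, was lower, with 191 to 286 in AtHB8 cells and 26.0 to 45.3 in S17 cells, against 118 to 1877 (-2.81 ± 0.23, adjusted p = 4.27e-08). The growth regulator gene ANT was lower as well (-1.18 ± 0.11, adjusted p = 1.38e-07), with S17 called and AtHB8 not. CLE44, LHW, MOL1, SFC, MP, WOL, LOG4 and ER were not called by the mean.

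Among the 5 class III HD-ZIP genes, 4 were higher and PHV was not called (0.40 ± 0.14, adjusted p = 0.0217). CNA (AT1G52150) was shared, with 8247, 10580 and 8040 in AtHB8 cells and 5470, 5687 and 5363 in S17 cells, against 226 to 720.5 in the others (3.89 ± 0.13, adjusted p = 2.23e-12). PHB and REV were called in AtHB8 and not in S17. PHB had 5633 to 5996 in AtHB8 cells, and its 1315 to 1415 in S17 cells lay within the 394 to 3570 of the others. REV had 10910 to 12180 in AtHB8 cells and 4984 to 5173 in S17 cells, against 986 to 5796 in the others. AtHB8 exceeded S17 by 2.09 ± 0.34 for PHB (adjusted p = 0.000702) and by 1.16 ± 0.28 for REV (adjusted p = 0.0104).

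Of 13 tested genes on a list of vascular DOF zinc-finger genes, 12 were higher and 0 lower, and 7 were shared (VDOF1, VDOF2, PEAR1, OBP3, OBP4, DAG1, DAG2). The list does not stand for the whole DOF family. The median difference over the 14 with a probe set was 2.87, against -0.091 over all 22746 probe sets. VDOF1 (AT4G24060), a regulator of vein development, had 1118, 977 and 1112 in AtHB8 cells and 920.4, 665 and 842 in S17 cells, against 1.91 to 119 in the others (5.45 ± 0.41, adjusted p = 1.66e-08). DAG2 was at least 11.2-fold higher (adjusted p = 1.15e-07) and OBP3 at least 8.99-fold (adjusted p = 2.49e-07). PEAR1, which promotes procambial divisions in roots, had 232 to 288 in AtHB8 cells and 319 to 367 in S17 cells, against 47.5 to 143 (1.79 ± 0.14, adjusted p = 2.37e-08).

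Its relative PEAR2 was bright in S17, with 27.9, 13.3 and 62.1 in AtHB8 cells and 284, 314 and 446 in S17 cells, against 6.60 to 70.6 in the others. HCA2 and COG1 were likewise called in S17 and not in AtHB8. OBP2 was called in both, yet AtHB8 minus S17 was -4.6 ± 0.62 (adjusted p = 0.000141). TMO6 was higher (2.84 ± 0.27, adjusted p = 2.31e-07) and its arrays did not overlap, but it was not shared. OBP1 was not called by the mean (-0.36 ± 0.09, adjusted p = 0.00263) and was lower in S17 (-1.499 ± 0.12, adjusted p = 4.23e-08). DOF6 was too dim to be tested.

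Of 13 tested xylem regulators and cell death genes, 10 were higher and 2 lower, with 6 shared higher (VND2, VND6, MYB58, XND1, XCP2, ACL5). The share of lower members was near the 13.2% of all tested. ACL5 (AT5G19530), thermospermine synthase, had 7813, 6945 and 6332 in AtHB8 cells and 1762, 1107 and 1522 in S17 cells, against 1.62 to 114 in the others (7.71 ± 0.38, adjusted p = 1.95e-10). XCP2, a protease of dying vessels, had 1829 to 2711 in AtHB8 cells and 351 to 585 in S17 cells, against 2.75 to 72.3 (4.97 ± 0.54, adjusted p = 8.57e-07). VND6, a NAC factor gene that starts vessel differentiation, had 265 to 484 in AtHB8 cells and 67.8 to 120 in S17 cells, against 1.54 to 37.5, at least 6.26-fold higher (adjusted p = 8.47e-08). These 3 genes of the xylem were above the other reporters in the phloem-labelled cells too.

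VND2 was shared (4.53 ± 0.20, adjusted p = 6.94e-11). VND7 was at least 8.19-fold higher by the mean (adjusted p = 4.57e-06) without passing all 10 pairs. XND1, which restrains xylem differentiation, was at least 8.11-fold higher, with 101.4 to 164 in AtHB8 cells and 286 to 469 in S17 cells, against 3.62 to 28.4. MYB58, an activator of lignin genes, differed by 3.23 ± 0.25 (adjusted p = 2.1e-08). VND1, VND3 and XCP1 were higher by the mean without being shared, and TED6 was not called. LBD18 and LBD30, LOB-domain genes listed here for vessel formation, went the other way. Both were shared and lower and were called absent on all 6 vascular arrays, with the others at least 12.4-fold and 7.10-fold higher. LBD30 is the same locus as the boundary gene JLO and is counted again among the meristem and boundary genes below. The other 11 members with a probe set, MYB46, MYB83 and SND1 among them, were too dim to be tested.

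Of 20 tested secondary wall and lignin genes, 17 were higher and 0 lower, with 6 shared, among them 4CL1, CAD5, HCT, CCoAOMT1 and CESA8. 4CL1 (AT1G51680), 4-coumarate:CoA ligase, had 4329, 4249 and 3369 in AtHB8 cells and 5669, 5619 and 5224 in S17 cells, against 19.6 to 241 in the others (5.57 ± 0.33, adjusted p = 1.45e-09). CAD5 (AT4G34230), cinnamyl alcohol dehydrogenase, had 5801 to 6275 in AtHB8 cells and 3713 to 5326 in S17 cells, against 9.10 to 382 (5.99 ± 0.36, adjusted p = 1.6e-09). AtHB8 minus S17 was -0.48 ± 0.55 for 4CL1 and 0.40 ± 0.60 for CAD5, and neither was called. CESA8 (AT4G18780), a cellulose synthase of secondary walls, was at least 6.47-fold higher (adjusted p = 1.15e-09), with 270.5, 187 and 420 in AtHB8 cells and 168, 74.9 and 97.4 in S17 cells, against 3.22 to 13.9. It was called absent on all 3 S17 arrays, so its bound and its shared call rest in part on S17 signals not above background. No bound can be given for S17 alone.

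Of 12 tested sieve element genes, 6 were higher and 0 lower by the mean, and 3 were shared (BAM3, SMXL3, OPS). BAM3 (AT4G20270), a receptor kinase for the CLE45 peptide in young phloem, had 4054, 5894 and 3982 in AtHB8 cells and 11530, 10930 and 9710 in S17 cells, against 3.37 to 975 with a median of 25.7 in the others (7.34 ± 0.34, adjusted p = 8.18e-11). It was absent on all AtML1, HMG and LAS arrays, and the ratio of arithmetic means, which rests less on those signals, was 35.9, against 162 by the fit. SMXL3, needed for phloem formation, had 134 to 197 in AtHB8 cells and 281 to 355 in S17 cells, against 2.88 to 58.9 (3.899 ± 0.51, adjusted p = 6.84e-06). OPS, which keeps sieve element files continuous, had 223 to 363 in AtHB8 cells and 140.2 to 444 in S17 cells, against 20.8 to 90.9 (2.46 ± 0.28, adjusted p = 1.66e-06). None of these 3 early phloem genes, picked out as shared on these same arrays, overlapped the other arrays.

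SEOR1, a filament protein of sieve elements, was called by the mean (1.27 ± 0.44, adjusted p = 0.019), with 48.8 to 79.2 in AtHB8 cells and 465 to 924 in S17 cells, against 2.76 to 2008 in the others. The HDG4 reporter, at a mean of 1516, was the brightest of all 7, and the ratio of arithmetic means, vascular over the rest, was 1.05. NAC028 was called in AtHB8 and in S17, and CVL1 in AtHB8 and not in S17. APL, SEOR2, CALS7, SUS6, MAKR5 and ENODL9 were not called by the mean.

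Transport genes of companion cells and veins were higher in 21 of 23 tested and lower in 0, and 8 were shared. S17 alone was higher at 21 and AtHB8 alone at 13. The median difference over the 24 with a probe set was 2.9. Amino acid carriers made up 6 of the shared members. UMAMIT18 (AT1G44800), an amino acid exporter, had 595, 468 and 517 in AtHB8 cells and 4962, 3798 and 5724 in S17 cells, against 6.503 to 58.3 in the others (6.40 ± 0.34, adjusted p = 4.45e-10). UMAMIT29 was at least 31.7-fold higher (adjusted p = 7.11e-07), and UMAMIT12 differed by 3.92 ± 0.19 (adjusted p = 1.56e-10). The amino acid permease gene AAP6 had 1291 to 2396 in AtHB8 cells and 5834 to 8227 in S17 cells, against 36.9 to 366 (4.92 ± 0.25, adjusted p = 2.69e-10). Its relatives AAP4 (4.06 ± 0.30) and AAP5 (2.25 ± 0.19) were shared too.

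The sulfate transporter gene SULTR2;2 was at least 10.7-fold higher (adjusted p = 8.52e-09). SUC4, the vacuolar sucrose transporter, was the shared sugar carrier, with 2065 to 2192 in AtHB8 cells and 914 to 1577 in S17 cells, against 179 to 701 (2.30 ± 0.18, adjusted p = 2.14e-08). SWEET11, SWEET12 and SUC2, genes of sucrose loading, were called in S17 and not in AtHB8. SWEET11 (AT3G48740), a sucrose exporter, had 50.5, 38.2 and 55.4 in AtHB8 cells and 19590, 19110 and 18490 in S17 cells, against 21.6 to 277 in the others, and AtHB8 minus S17 was -8.62 ± 0.52 (adjusted p = 1.17e-07). SWEET12 had 16.2 to 56.7 in AtHB8 cells and 8491 to 13940 in S17 cells, against 11.98 to 209. The sucrose symporter gene SUC2 had 94.3 to 104 in AtHB8 cells and 958 to 1343 in S17 cells, against 16.4 to 307. PP2-A1, AHA3, SWEET14, FTIP1 and SULTR2;1 had the same pattern of calls. AAP3 had the reverse pattern, with 156 to 244 in AtHB8 cells and 14.0 to 41.7 in S17 cells, against 6.25 to 47.0. AKT2 (at least 6.03-fold), UMAMIT11 (at least 5.19-fold), UMAMIT20 (at least 8.54-fold) and AAP2 (2.76 ± 0.21) were called in both without being shared. SUC3 and SWEET13 were not called by the mean.

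**Figure D3:**
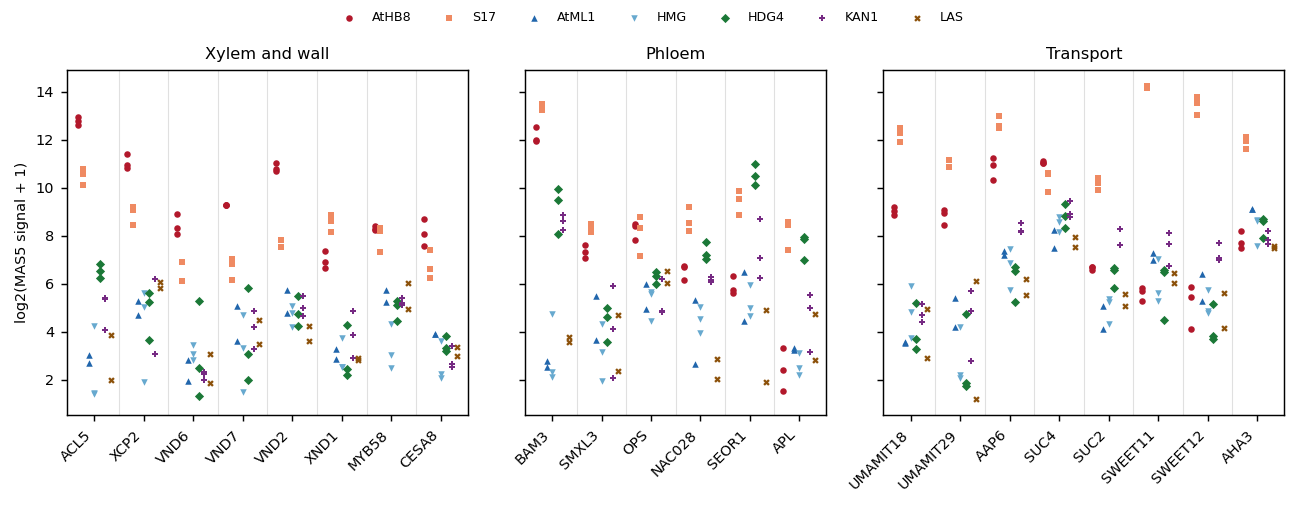
log2(MAS5 signal + 1) on every array for xylem, phloem and transport genes, with AtHB8 and S17 drawn left of the 5 others for each gene. ACL5, XCP2 and BAM3 are above the other reporters in both AtHB8 and S17, while SWEET11 and SWEET12 are bright in S17 and not in AtHB8.

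Of 12 tested auxin transport genes, 7 were higher and 1 lower, and PIN3, PIN4 and PIN6 were shared. The carrier gene PIN6 had 3049 to 3143 in AtHB8 cells and 669.7 to 927 in S17 cells, against 18.04 to 159 in the others (4.74 ± 0.22, adjusted p = 7.41e-11). PIN3, an efflux carrier, was nearly level in the pair, with 361 to 498 in AtHB8 cells and 399 to 519 in S17 cells, against 36.8 to 87.1 (2.83 ± 0.11, adjusted p = 1.85e-11). PIN7 was higher by the mean (4.24 ± 0.36, adjusted p = 6.37e-08), but AtHB8 cells, at 67.7 to 203, overlapped KAN1 cells, at a mean of 166, and the ratio of arithmetic means was 6.55, against 18.95 by the fit. The influx carrier gene LAX3 was called through S17, with 10.1 to 58.2 in AtHB8 cells and 568 to 1073 in S17 cells, against 3.78 to 48.7. PID, the kinase that directs PIN proteins, was shared and lower, with 2035 to 2154 in AtHB8 cells and 1302 to 1550 in S17 cells, against 3914 to 8324 (-1.69 ± 0.09, adjusted p = 3.21e-10).

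SHR and its partner SCR went opposite ways. SCR (AT3G54220), which retains SHR in the nucleus in the root endodermis, had 143, 188 and 133 in AtHB8 cells and 10.2, 88.6 and 85.0 in S17 cells, against 784 to 1771 in the others (-3.88 ± 0.34, adjusted p = 8.14e-08). Of the 7 genes of this list, 3 were higher (SHR, MGP, NUC) and 2 lower (SCR, JKD). The zinc-finger genes MGP and NUC were called through S17, where MGP had 141 to 282, with 3.50 to 7.61 in AtHB8 cells and 1.58 to 6.01 in the others.

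Glucosinolates are sulfur-rich defence compounds that travel in the phloem. Of 14 tested genes of their synthesis and transport, 11 were higher and 0 lower, with 6 higher in AtHB8 alone and 13 in S17 alone. The transporter genes GTR1 and GTR2 and the regulator gene MYB34 were shared. GTR1 (AT3G47960) had 6872, 7777 and 9765 in AtHB8 cells and 7416, 10380 and 8049 in S17 cells, against 307 to 1733 in the others (3.75 ± 0.15, adjusted p = 2.46e-11). GTR2 differed by 4.62 ± 0.36 (adjusted p = 2.76e-08), and MYB34 was at least 4.42-fold higher (adjusted p = 3.65e-09). MYB28, a regulator gene of the same pathway, was at least 4.84-fold higher without being shared, and was absent on all AtHB8 arrays.

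Jasmonate synthesis genes were higher in 9 of 10 tested, and LOX3, AOS, OPR3, JAR1 and DAD1 were shared. LOX3, a lipoxygenase, had 7643 to 8285 in AtHB8 cells and 6421 to 7357 in S17 cells, against 884 to 2845 in the others (2.15 ± 0.08, adjusted p = 9.41e-12). JAR1, which conjugates jasmonate to isoleucine, had 11680 to 13110 in AtHB8 cells and 4765 to 12370 in S17 cells, against 456 to 1710 (3.41 ± 0.18, adjusted p = 2.86e-10). AOS, allene oxide synthase, differed by 2.16 ± 0.18 and the lipase gene DAD1 by 2.98 ± 0.32. LOX2, another lipoxygenase gene, was lower (-1.05 ± 0.34, adjusted p = 0.0133), called in S17 and not in AtHB8.

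Of 20 tested stress and wounding genes, 9 were higher, 0 lower and 11 not called, where 15.6% of all tested were higher. The heat-shock genes HSP70 and HSP101 were shared. HSP70 had 3920 to 5206 in AtHB8 cells and 1902 to 3727 in S17 cells, against 100.6 to 585 in the others (3.96 ± 0.20, adjusted p = 3.04e-10). HSP101 differed by 2.75 ± 0.24 (adjusted p = 1.04e-07). HSP17.4 (at least 2.99-fold) and RD29A (2.18 ± 0.35) were higher without being shared. The whole list summed to 123651 to 197358 in vascular arrays and 80084 to 138364 in the others, so the sums overlapped. The touch genes TCH2, TCH3 and TCH4 and the WRKY genes WRKY33, WRKY40 and WRKY53 were not called. The part of cell handling in the jasmonate and heat-shock results was not tested.

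Aquaporin genes, which encode water channels, were higher in 9 of 13 tested and lower in 0, with PIP1A, PIP2A and PIP2;4 shared. PIP1A had 3124 to 3973 in AtHB8 cells and 3025 to 4017 in S17 cells, against 142 to 958 in the others (3.18 ± 0.19, adjusted p = 1.16e-09). PIP2A differed by 5.25 ± 0.27 (adjusted p = 3.19e-10), with KAN1 brightest among the others at a mean of 1349. TIP1;2 (3.31 ± 0.40) and TIP2;1 (3.23 ± 0.20) were higher without being shared.

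Of 15 tested epidermal identity genes, 12 were lower and 8 of those were shared. Of 22 tested cuticle and wax genes, 20 were lower and 14 of those were shared. The median difference was -3.97 over the 16 identity genes and -4.56 over the 24 cuticle genes with a probe set. ATML1 (AT4G21750), the HD-ZIP gene of the AtML1 reporter, had 80.7, 120.4 and 90.7 in AtHB8 cells and 142, 77.9 and 134 in S17 cells, against 200.5 to 10340 with a median of 5093 in the others (-4.90 ± 0.18, adjusted p = 8.4e-12). FDH (AT2G26250), the elongase-like FIDDLEHEAD gene, differed by -5.41 ± 0.20 (adjusted p = 8.4e-12). It is the same locus as KCS10 of the cuticle list and is counted as shared in both lists. LACS1, an acyl-CoA synthetase of wax synthesis, had 1.74 to 41.2 in vascular arrays, against 102 to 4452 (-6.56 ± 0.48, adjusted p = 1.36e-08). PDF2, MYB30 and KCS2 were called absent on all 6 vascular arrays, with the others at least 30.2-fold, 31.6-fold and 26.2-fold higher. Among the others, HDG4 came nearest, at a mean of 332 for ATML1 and 168 for LACS1. GL2, a regulator of leaf hairs and root hairs, was the 1 identity gene that was higher (2.56 ± 0.53, adjusted p = 0.00054), with 176, 198 and 229 in AtHB8 cells and 217, 27.3 and 34.9 in S17 cells, against 2.34 to 60.9.

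Meristem and boundary genes were lower in 12 of 17 tested and higher in 1, with 7 shared lower. These counts include JLO, the same probe set as LBD30 of the xylem list. CUC3 (AT1G76420), a boundary NAC factor gene, had 21.4 to 44.0 in AtHB8 cells and 23.0 to 61.8 in S17 cells, against 253 to 1533 in the others (-4.25 ± 0.20, adjusted p = 1.28e-10). The MYB gene LOF1 was called absent on all 6 vascular arrays, with the others at least 13.4-fold higher. The LAS gene (AT1G55580), that of the LAS reporter, was absent there too, and the others were at least 7.21-fold higher, with the LAS reporter brightest at a mean of 5973. Without that reporter the bound was 3.47-fold, and LAS was not shared. CUC1 was lower without being shared (-3.81 ± 0.61, adjusted p = 5.56e-05). KNAT1 (AT4G08150), a homeobox gene, was the higher member, with 1674 to 2325 in AtHB8 cells and 2403 to 3166 in S17 cells, against 115 to 1445 (2.57 ± 0.10, adjusted p = 1.51e-11). KAN1 cells were the brightest of the others, at a mean of 1347, and KNAT1 was not shared.

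Of 13 tested floral regulators, 6 were lower and 2 higher. The share of higher members was near the 15.6% of all tested. PI, a petal and stamen identity gene, was the shared member, with 93.95 to 186 in vascular arrays, against 518 to 3578 in the others (-2.93 ± 0.20, adjusted p = 5.33e-09). SEP2 (-3.74 ± 0.40), UFO (others at least 8.28-fold higher) and AP2 (at least 2.98-fold) were lower without being shared, and SEP4 was higher (1.64 ± 0.17). FUL was higher (1.32 ± 0.11, adjusted p = 5.33e-08) and its arrays did not overlap. Of 6 tested abaxial genes, FIL was shared and lower (-3.43 ± 0.20, adjusted p = 1.1e-09), YAB3 was lower, and KAN3 was higher, called in S17 and not in AtHB8. The 1 higher member of 6 is also near the 15.6% of all tested. The KAN1 and HDG4 genes were too dim to be tested.

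Cell division genes were lower in 16 of 20 tested and higher in 0, and PCNA1, PCNA2, MCM2 and MCM7, all of DNA replication, were shared. PCNA1 (AT1G07370) had 1131 to 1151 in AtHB8 cells and 867 to 1066 in S17 cells, against 3149 to 9774 in the others (-2.38 ± 0.12, adjusted p = 1.87e-10). PCNA2 differed by -2.45 ± 0.14, MCM2 by -2.23 ± 0.14 and MCM7 by -2.18 ± 0.17. The list summed to 12885 to 23599 in vascular arrays and 33806 to 62066 in the others, without overlap. CYCB1;4, CYCB2;1, CYCB2;2 and CYCD3;1 were not called.

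Photosynthesis genes were higher by the mean in 13 of 24 tested, where 15.6% of all tested were. Of the 24, 0 were shared, where 5.13% of all tested were shared higher, so the 0 is near that share. PRK, a Calvin cycle kinase, had 272 to 360.5 in AtHB8 cells and 512 to 659.6 in S17 cells, against 57.2 to 593 in the others (1.56 ± 0.12, adjusted p = 2.92e-08), with KAN1 at a mean of 557. GAPA (2.11 ± 0.23), PSBQ-2 (2.23 ± 0.31) and PSBO2 (at least 7.68-fold, absent on all AtHB8 arrays) were higher as well. The list summed to 45109 to 53979 in AtHB8 and 66094 to 80657 in S17 arrays, against 73075 to 76115 in KAN1 and 12768 to 47257 in the other 4 reporters.

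**Figure D4:**
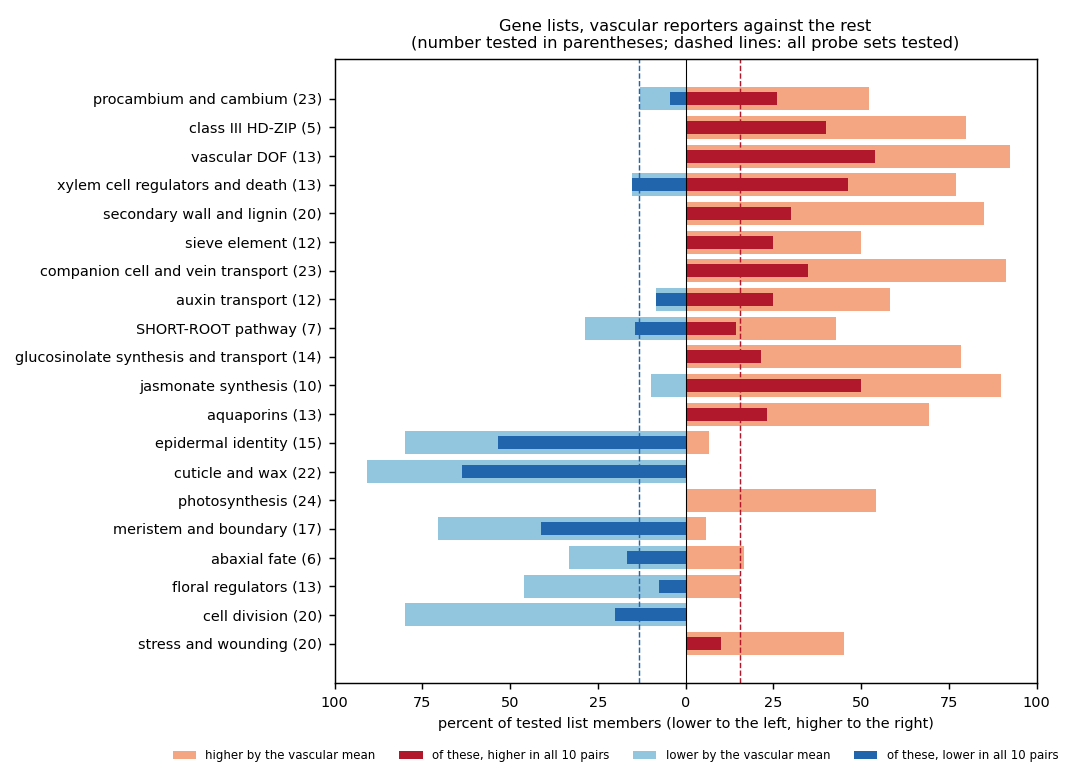
Percent of the tested members of each gene list called higher or lower in the vascular reporters than in the rest, with the narrower bars counting members called in all 10 pairs. Lines mark the 15.6% higher and 13.2% lower of all 15149 probe sets.

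Few probe sets moved in opposite directions in the vascular reporters. Against the same 13 arrays, AtHB8 was higher and S17 lower at 11 (0.0726%), and AtHB8 was lower and S17 higher at 28 (0.185%). Both differences subtract the same 13 arrays, which by itself makes opposite calls rarer, so the low counts do not measure agreement. Compared directly, AtHB8 and S17 differed at 8.56% of all tested. MP (AT1G19850), the auxin response factor gene that starts vein formation, had 5335, 7465 and 4892 in AtHB8 cells and 481, 514 and 739 in S17 cells, against 1789 to 3587 in the others. AtHB8 alone differed by 1.35 ± 0.20 (adjusted p = 3.81e-05) and S17 alone by -2.002 ± 0.20 (adjusted p = 5.5e-07). CLE44 and APL were called lower in AtHB8 and higher in S17. Both were absent on all AtHB8 arrays, CLE44 also on all AtML1, HDG4 and LAS arrays and APL on all AtML1, HMG, KAN1 and LAS arrays, so the lower call in AtHB8 compares signals that were mostly not above background. The same absent call in AtHB8 held at 21 of the 28. CLE44, another gene for the PXY ligand, had 21.7, 4.92 and 41.4 in AtHB8 cells and 591, 266 and 174 in S17 cells, against 16.3 to 81.4. APL, a MYB factor gene of phloem identity, had 1.92 to 8.93 in AtHB8 cells and 170 to 385 in S17 cells, against 3.58 to 246, with HDG4 brightest among those at a mean of 202.

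**Figure D5:**
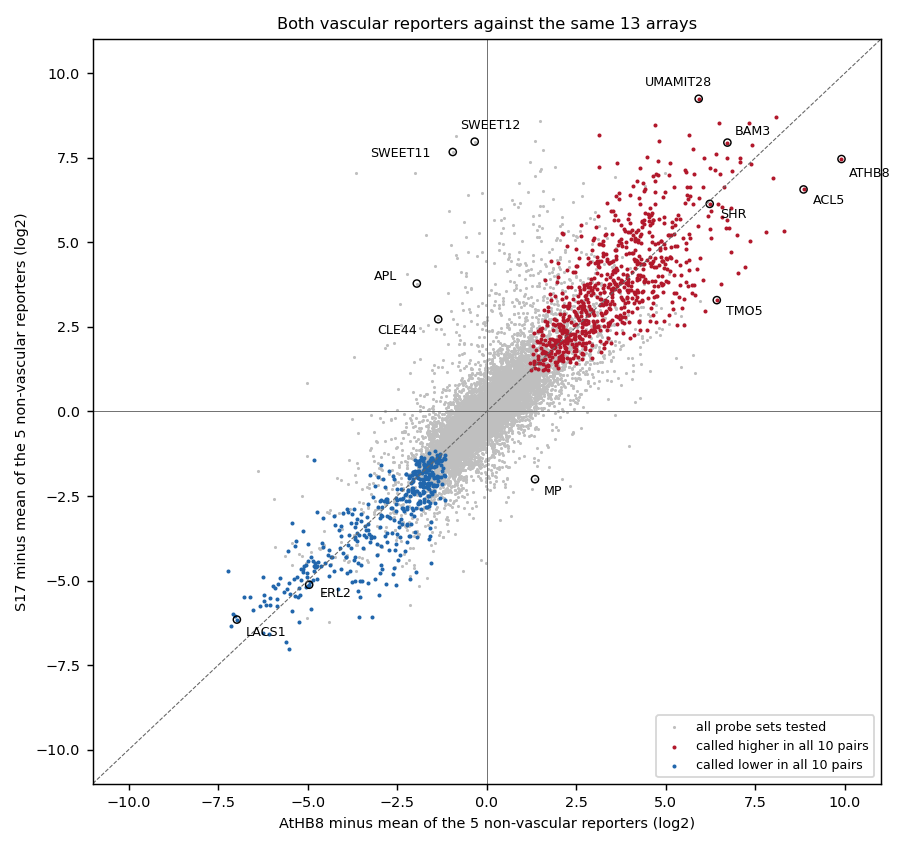
log2 difference of AtHB8 (horizontal) and of S17 (vertical) from the mean of the same 13 non-vascular arrays, which both axes share, for 15149 probe sets; coloured points are called higher or lower in all 10 pairs, and the diagonal marks equal differences. SWEET11, SWEET12 and CLE44 lie on the S17 side of the diagonal and MP on the AtHB8 side; CLE44 and APL were absent on all AtHB8 arrays, so their horizontal positions are not measured levels.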

How the data were processed

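Affymetrix ATH1 arrays were measured for 19 samples of 7 sorted populations, and groups came from the array titles. The authors deposited linear MAS5 signal intensities, 1 value per probe set and array, and the submitters' processing notes name the MAS5 algorithm. The deposited values have a trimmed mean of 500 on each array after 2% was trimmed at each end, so levels are relative to the array. The authors' averaged table supplied detection calls and locus names for 21021 probe sets, and its signal intensities matched the mean of the arrays. Versions and the genome build were not given in the sources used here. The number of arrays limits the precision.

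After 64 control probe sets were left out, probe sets at or above the 40th percentile of every array of at least 1 reporter were tested (15149 of 22746). log2(signal + 1) was fitted in limma 3.58.1 (R 4.3.3) using a separate mean for each of the 7 reporters and all 19 arrays, and p-values were adjusted by Benjamini-Hochberg over all tested probe sets. The fit was tested on simulated data. Bounds set the brighter side against the lowest signal called present on each array, or the gene's own signal where higher. The 3′ to 5′ ratios were compared by exact permutation of arrays, which were treated as independent whatever their reporter.

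Named were the 12 shared higher and 12 shared lower genes with the widest smallest difference, up to 4 higher and 4 lower genes of each of 20 lists, all members of the lists for procambium, HD-ZIP, DOF, xylem regulators, sieve elements and vein transport, and the reporters' genes. Members of other lists named without values stand for the list's calls. Most members too dim to be tested are not named, and a tested gene that this rule names is not reported here. Of 367 listed genes, 342 had a probe set. Members, lists and tests were chosen with earlier results of these data known. Pseudocount, filter, scaling, weights, replicate block, fold minimum, kind of mean, and leaving out reporters or arrays were varied.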

Additional observations from a re-analysis of the deposited data

Results flagged for a closer look

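Against the same 13 non-vascular arrays, AtHB8 and S17 were called in opposite directions at 11 probe sets with AtHB8 higher and S17 lower, and at 28 with AtHB8 lower and S17 higher. Among the genes of the lists these were MP and PIP2;5 in the first set and CLE44, APL and KAN2 in the second, and for each the difference between the vascular reporters was called in limma; PIP2;5 and KAN2 were picked out after their values were seen. MP was higher in AtHB8 than in S17 by 3.35 ± 0.25 (log2, adjusted p = 5.98e-07). PIP2;5, an aquaporin gene, had 10830, 11200 and 10530 in AtHB8 cells and 1600, 2209 and 1184 in S17 cells, against 330.5 to 8396 in the others, and AtHB8 minus S17 was 2.75 ± 0.30 (adjusted p = 1.92e-05). CLE44, APL and KAN2 were absent on all AtHB8 arrays, so only bounds can be given. The adjusted p-values beside them are those of the fit, which used the absent AtHB8 signals, and do not test the bounds. S17 was at least 9.99-fold higher than AtHB8 for CLE44 (adjusted p = 0.000514), at least 9.90-fold for APL (adjusted p = 1.87e-05) and at least 14.4-fold for KAN2 (adjusted p = 4.05e-05). KAN2, an abaxial fate gene, had 30.3, 54.0 and 4.70 in AtHB8 cells and 592, 610.3 and 519 in S17 cells, against 70.6 to 326 in the others. The reporter groups hold 2 or 3 arrays, too few to look for arrays that stand apart within a group.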

How the results depend on the processing

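Of 169 named genes tested, the call by the vascular mean kept its direction and side of the threshold for all of them with quantile scaling, array weights or no filter on low signals, for 166 with a pseudocount of 16 and for 157 with 64. With the 7 reporter means as the samples, 39 lost the call, and the counts were 1673 higher and 1480 lower. As a ratio of arithmetic means, 38 moved by more than 1.5 times or changed side of 1, without turning a call: SMXL5 gave 9.22, against 17.04 by the fit, VDOF1 26.8, against 43.7, SHR 45.7, against 72.6, VND2 36.03, against 23.1, and CLE41 7.25, against 3.25. Of 51 called named genes with a bound, 29 had a bound over 1.5 times smaller without the brightest reporter, 9 of them below 1. Without S17, 13 named genes lost the call and 3 gained it with the sign kept, and 6 uncalled genes changed sign. Without AtHB8 these counts were 9, 8 and 2. Genes that changed sign with a call in either fit are left out of these counts and follow. Without S17 the sign turned for AHA3 (-0.45), APL (-1.95), CLE41 (-0.73), CLE44 (-1.35), MP (1.35), NUC (-0.57), SEOR1 (-0.49), SWEET11 (-0.95) and SWEET12 (-0.33), and without AtHB8 for LBD4 (-0.01), since the remaining vascular reporter then stands alone. Among the genes whose sign turned, APL, CLE44 and MP gained a call, and all the others lost theirs. Dropping the fold minimum gave 4485 probe sets higher in the vascular mean and 5891 lower, 43.2% higher against 54.1% with it. The shared lower count was then 1166, with 8805 called in AtHB8 against the rest, 9245 in S17 against the rest and 2358 in AtHB8 against S17. Without AtHB8, 1308 were shared higher and 938 lower, with fewer pairs to pass. A pseudocount of 64 left 260 shared lower; the cause was not tested.

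Leaving out 1 array at a time gave 2311 to 2376 higher and 1970 to 2070 lower by the mean, 699 to 798 shared higher and 379 to 432 shared lower, 3978 to 4246 called in AtHB8, 4523 to 4757 in S17 and 1121 to 1356 between them. For the 3′ to 5′ ratios, vascular minus the rest was -1.46 to -1.23 for ubiquitin, 0.358 to 1.63 for actin and -0.386 to -0.134 for GAPDH. The GAPDH value of -0.386 without AtHB8 replicate 3 passed the threshold in the permutation of single arrays (exact p = 0.0352). Without KAN1 the actin value was -0.644; the cause was not tested.

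Replicate numbers did not pair the samples: over 46 pairs of the same number the residuals' median correlation was 0.005, and 3 exceeded 0.1. With the number as a replicate block, 2375 were higher, 1998 lower, 769 shared higher and 398 shared lower. AtHB8 had 4184 calls, S17 4718, and AtHB8 against S17 1329. Dim probe sets limit what can be seen: absent calls give bounds only.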
